A study of Mus musculus with 7 samples.

Results

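The guanylate-binding proteins (GBPs) are a family of large GTPases, and 8 of their mouse genes were followed here: Gbp2, Gbp3, Gbp4, Gbp5, Gbp6, Gbp7, Gbp8 and Gbp9. They were picked by symbol from a table of 55401 genes, and all 8 were among the 19199 genes that passed a filter on low counts. All 8 passed that filter in each of the 7 libraries. RNA came from cells of the dorsal hippocampus of C57BL/6 mice, 6 to 8 weeks old, enriched on CD11b beads as microglia. Every mouse had received AAV-RAM-Cre, injected into the dentate gyrus of the dorsal hippocampus. In this virus Cre is driven by a promoter that responds to neuronal activity, so that the second virus was aimed at engram neurons and not at the microglia sequenced. In 4 libraries (EYFP 1 to 4) that second virus was AAV-Dio-EYFP, and in 3 libraries (ATG7 1 to 3) it was AAV-Dio-Atg7-Flag. The labels do not say whether a library came from 1 mouse or from pooled mice, so p-values measure the spread between these libraries.

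GBPs are induced by interferon, above all by interferon gamma, in macrophages, microglia and many other cells. They bind guanine nucleotides, assemble on membranes and gather at the vacuoles of intracellular parasites and on bacteria in the cytosol. There they act with a second family of interferon-induced GTPases, the immunity-related GTPases (IRGs), and help to activate caspase-11, the sensor of cytosolic lipopolysaccharide encoded by Casp4. Their placement on vacuoles depends on the conjugation machinery of autophagy, to which ATG7 belongs. In the brain they are known as part of the interferon response of microglia.

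Total counts per library ran from 35934210 to 55217119 and overlapped between the groups (exact permutation p = 0.286, two-sided). Microglial RNA was present: 10 microglial markers, among them P2ry12, Tmem119 and Cx3cr1, summed to between 21398 and 26437 CPM (counts scaled to library size with TMM factors). No library of unenriched cells was at hand, so this sum does not measure the enrichment. Choroid plexus markers summed to more, between 46514 and 72454 CPM, so the libraries also held RNA typical of that epithelium. EYFP 3 stood apart from a series described as male: it had 938.5 CPM of Xist, against at most 0.574 CPM in the other libraries, and 56.4 CPM summed over 4 Y-linked genes, against at least 245.5 CPM elsewhere. Results are therefore also given without EYFP 3. Because the bead-enriched fraction was sequenced in bulk, fewer cells of a type and less RNA per cell cannot be told apart.

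The GBP genes were higher in ATG7 than in EYFP libraries. The fitted difference was above 0 for 8 of the 8 members, and 6 of the 8 passed: Gbp2, Gbp4, Gbp5, Gbp6, Gbp8 and Gbp9 (adjusted p under 0.05 over all genes tested, by edgeR's quasi-likelihood test and the Benjamini-Hochberg method). Over all genes tested 0.688% were called higher at that threshold, and 49.2% had a difference above 0. The median log2 fold change was 0.76 over the members and -0.00 over all genes tested. In the same 6 genes every ATG7 library lay above every EYFP library, which held for 6.33% of all genes tested. Without EYFP 3 the count was 5, Gbp9 being lost. In that fit 0.749% of all genes were called higher. The count was 3 (Gbp2, Gbp5 and Gbp6) without EYFP 2 or without ATG7 1, against 0.452% and 0.685% of all genes. Without EYFP 1 the same 6 were called, against 1.1% of all genes. The count was 2 (Gbp2 and Gbp6) without EYFP 4, ATG7 2 or ATG7 3, against 0.142%, 0.134% and 0.138%. In each of these fits the difference stayed above 0 for all 8 members. Adding a score of choroid plexus markers to the model left 1 member called, Gbp6, where 0.104% of all genes were called higher, and all 8 differences stayed above 0. DESeq2 and limma-voom each called 6 members as well, against 2.11% and 0.953% of all genes. With library size alone, upper quartile factors or a filter at a mean of 1 CPM edgeR called 5, Gbp9 being lost. In either direction these fits called 138 and 140 of 19199 genes and 153 of 15055 genes.

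**Figure D1:**
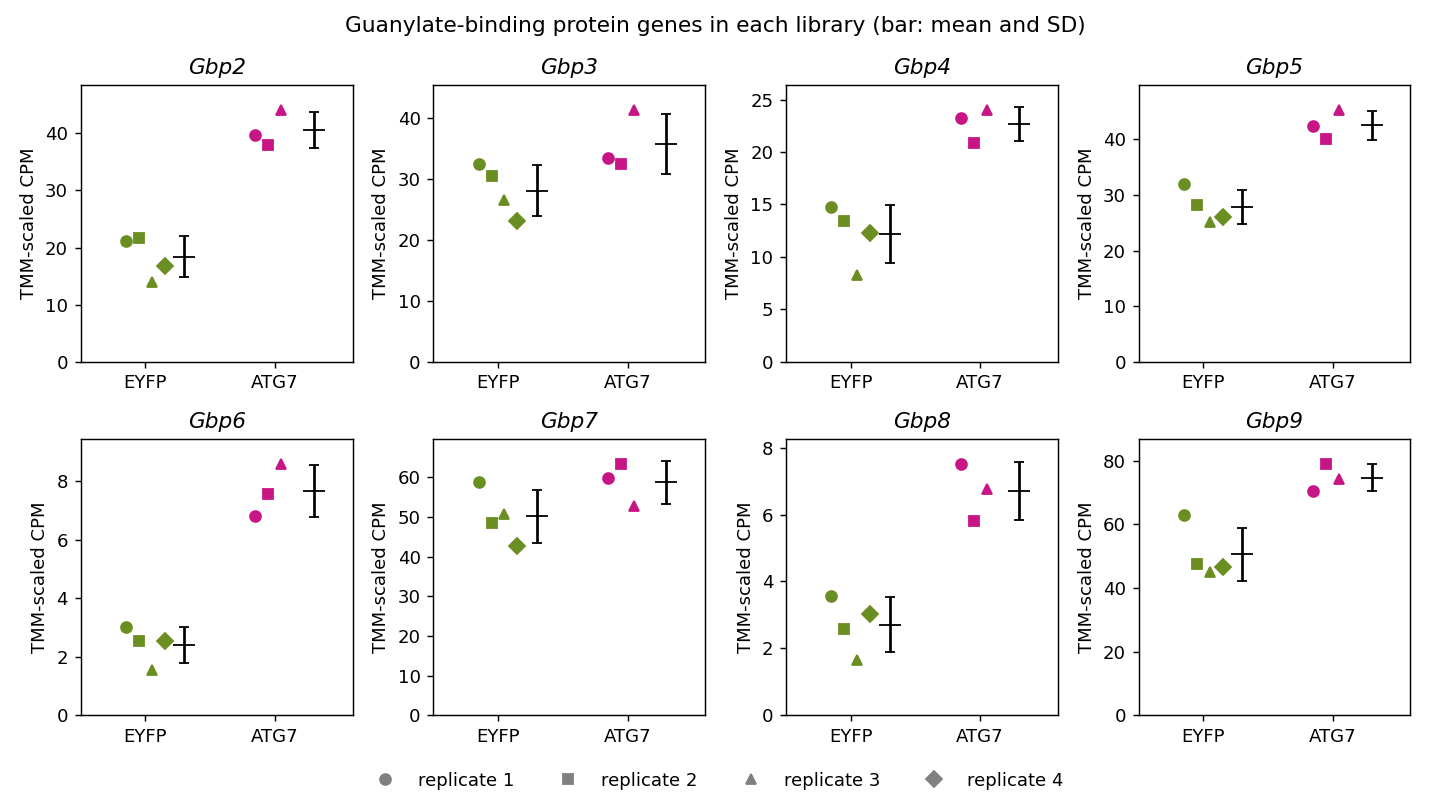
TMM-scaled CPM (vertical axis, from 0) of the 8 members in each library of the EYFP and ATG7 groups, with symbols for the replicate number and bars for the mean and SD. The ATG7 points lie above all EYFP points in 6 panels and overlap with them for Gbp3 and Gbp7.

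The members lie in clusters on chromosomes 3 and 5, with 4 members on each. Coding sequences were taken as the longest open reading frame of the GENCODE M21 protein-coding transcripts, and 10 genes of the family were compared pair by pair. The genes on chromosome 5 were 89.0% to 98.4% identical, with a median of 90.5% over 10 pairs, and those on chromosome 3 were 56.7% to 82.5% identical, with a median of 59.6%. Each gene encodes a phosphate-binding loop, the stretch that holds the nucleotide and the best known motif of the family. Its codons are shown because this loop binds the nucleotide in the members described here. Capitals mark the codons of the loop and small letters the flanking bases, 5′ to 3′.
Gbp2: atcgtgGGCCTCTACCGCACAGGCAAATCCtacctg
Gbp5: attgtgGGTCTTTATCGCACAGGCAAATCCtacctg
Gbp4: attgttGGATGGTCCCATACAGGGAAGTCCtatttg
Gbp6: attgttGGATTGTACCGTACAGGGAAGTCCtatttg
Gbp8: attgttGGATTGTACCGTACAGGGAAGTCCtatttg
Gbp9: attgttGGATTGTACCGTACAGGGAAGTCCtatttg
Gbp10: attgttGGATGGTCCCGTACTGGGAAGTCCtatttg
The stretch is identical in Gbp6, Gbp8 and Gbp9, and its capitals differ from those of Gbp2 at 6 bases. In Gbp5 they differ from Gbp2 at 3 bases, and in Gbp4 and Gbp10 at 9.

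On chromosome 3, Gbp2 encodes a GBP that carries a lipid anchor at its end and gathers at parasite vacuoles. It lies from 142620602 to 142638008 in GRCm38 on the plus strand. The EYFP libraries had 21.1, 21.6, 14.1 and 16.8 CPM and the ATG7 libraries 39.6, 38.1 and 44.1 CPM. The lowest ATG7 library was 1.76 times the highest EYFP library, the widest gap among the chromosome 3 members. Gbp2 rose 2.21-fold (log2 fold change 1.14, SE 0.137, edgeR adjusted p = 0.00705). It was called in each of the 7 fits with 1 library left out, and without EYFP 3 the log2 fold change was 1.03 (edgeR adjusted p = 0.00310). The RefSeq promoter of Gbp2 (GRCm38.p6, chr3:142620413-142620712, plus strand) is printed because a match to the interferon-stimulated response element (ISRE) stands in it. The search was for GAAA, any 2 bases and GAAA again on both strands, an element bound by IRF factors, and for TTCNNNGAA, the gamma-activated sequence (GAS), which reads alike on both strands. Capitals mark the matches.
Gbp2 promoter: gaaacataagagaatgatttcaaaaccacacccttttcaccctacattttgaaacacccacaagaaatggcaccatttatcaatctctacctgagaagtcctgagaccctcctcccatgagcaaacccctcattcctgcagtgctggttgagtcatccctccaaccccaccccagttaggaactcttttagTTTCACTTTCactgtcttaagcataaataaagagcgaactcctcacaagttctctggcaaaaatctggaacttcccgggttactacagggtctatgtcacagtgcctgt
The ISRE match lies from -59 to -50 relative to the RefSeq start, and no GAS match was found in this window.

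Gbp5, whose product is also lipid-anchored and is known for its part in inflammasome activation, lies from 142493978 to 142522344. Its values were 31.9, 28.2, 25.1 and 26.0 CPM in EYFP 1 to 4 and 42.3, 40.0 and 45.3 CPM in ATG7 1 to 3. The groups did not overlap, and the SDs were small beside the difference (27.8 ± 3.04 CPM, SD, n = 4, and 42.5 ± 2.65 CPM, SD, n = 3). Gbp5 rose 1.53-fold, with a log2 fold change of 0.61, an SE of 0.0930 and an edgeR adjusted p of 0.0156. The call was kept without EYFP 3 (log2 fold change 0.56, edgeR adjusted p = 0.0293) and lost without EYFP 4, ATG7 2 or ATG7 3. Its RefSeq promoter (GRCm38.p6, chr3:142496684-142496983, plus strand) holds both kinds of match. It is set beside that of Gbp2 because both genes rose.
Gbp5 promoter: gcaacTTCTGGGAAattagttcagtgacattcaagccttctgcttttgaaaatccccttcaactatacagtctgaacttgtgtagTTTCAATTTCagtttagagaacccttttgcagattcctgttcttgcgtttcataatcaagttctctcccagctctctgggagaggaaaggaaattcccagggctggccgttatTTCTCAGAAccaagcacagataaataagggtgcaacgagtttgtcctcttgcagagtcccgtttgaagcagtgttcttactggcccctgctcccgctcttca
The ISRE match runs from -165 to -156, and the GAS matches from -245 to -237 and from -52 to -44.

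Promoter sequences matched 5 of the 11 genes of the family, namely Gbp2, Gbp3, Gbp5, Gbp7 and Gbp2b. An ISRE match was present in a promoter of each of the 5 genes, while 3.44% of all 32851 RefSeq promoters of that length hold one. GAS matches stood in the promoters of Gbp5 and Gbp7, and 8.30% of all promoters hold one. The matches were thus present also in Gbp3, Gbp7 and Gbp2b, which did not pass the test. In Gbp7 the ISRE match lies from -53 to -44 and the GAS matches from -106 to -98 and from -87 to -79. In Gbp3 a pair of overlapping ISRE matches begins at -45 and -39. A match in these letters describes the sequence and was not tested as a binding site.

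Gbp7, known for a part in assembling the NADPH oxidase on vacuoles, and Gbp3, which also gathers at parasite vacuoles, are the members whose difference did not pass. Gbp7 (chromosome 3, 142530342 to 142550149) had 58.9, 48.5, 50.6 and 42.7 CPM in EYFP 1 to 4 and 59.9, 63.4 and 52.9 CPM in ATG7 1 to 3. Its lowest ATG7 library lay below EYFP 1 and above the other EYFP libraries. Its fitted log2 fold change was 0.23, SE 0.105 (edgeR adjusted p = 0.427). Gbp3 (142560026 to 142573209) had 32.4, 30.4, 26.4 and 23.0 CPM in EYFP 1 to 4 and 33.4, 32.3 and 41.2 CPM in ATG7 1 to 3. Here ATG7 2 and EYFP 1 were almost equal, and the highest value was that of ATG7 3. Its fitted log2 fold change was 0.35, SE 0.125 (edgeR adjusted p = 0.286). Over 17 alternatives neither gene was called, and the log2 fold change ran from 0.12 to 0.35 for Gbp7 and from 0.22 to 0.42 for Gbp3. A p above the threshold does not show that these genes were equal in the groups.

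On chromosome 5, Gbp6 showed the largest fitted change of the 8 members. Its product is among the GBPs that gather at parasite vacuoles. Gbp6 lies from 105270702 to 105293698 on the minus strand. The EYFP libraries had 3.00, 2.55, 1.55 and 2.55 CPM and the ATG7 libraries 6.82, 7.57 and 8.60 CPM. The lowest ATG7 library was 2.27 times the highest EYFP library. Gbp6 rose 3.18-fold (log2 fold change 1.67, SE 0.208, edgeR adjusted p = 0.00705). It was called without each library in turn, without EYFP 3 at a log2 fold change of 1.50 (edgeR adjusted p = 0.00358).

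Reads of Gbp6 can be confused with those of Gbp10, whereas Gbp5 shares 0% of its 50-base words with the rest of the family, Gbp2 2.03% and Gbp8 18.1%. The coding sequences of the 2 genes are 98.4% identical, and 73.3% of the 50-base words of the Gbp10 transcripts also occur in those of Gbp6. The annotation adds a read-through gene, Gm43302, that shares 29.0% of the exonic bases of Gbp6 and 46.3% of those of Gbp10. It was listed at 0 counts in 6 libraries and at 1 count in the remaining library. How reads shared by overlapping or similar genes were handled is not given in the sources used here, so the separate values of Gbp6 and Gbp10 are uncertain. Summed, the 2 genes averaged 2.60 CPM in EYFP (SD 0.683, n = 4) and 8.99 CPM in ATG7 (SD 1.01, n = 3), and the lowest ATG7 library was 2.43 times the highest EYFP library.

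Gbp8 (105014150 to 105139540) is a gene of low level in these libraries. It had 3.58, 2.57, 1.64 and 3.04 CPM in EYFP 1 to 4 and 7.52, 5.81 and 6.77 CPM in ATG7 1 to 3. The groups were apart by a factor of 1.62 between their nearest libraries. Gbp8 rose 2.48-fold (log2 fold change 1.31, SE 0.232, edgeR adjusted p = 0.0282).

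Gbp4 (105115767 to 105139586) had 14.7, 13.4, 8.31 and 12.2 CPM in EYFP and 23.2, 20.9 and 24.0 CPM in ATG7. EYFP 3 was the lowest of its libraries, and the groups did not overlap. It rose 1.87-fold (log2 fold change 0.90, SE 0.162, edgeR adjusted p = 0.0313). For both Gbp4 and Gbp8 the call was kept without EYFP 3 (log2 fold changes 0.75 and 1.12, edgeR adjusted p = 0.0110 and 0.0264) and lost without EYFP 2, EYFP 4, ATG7 1, ATG7 2 or ATG7 3.

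Gbp9 (105077630 to 105139539), whose product also gathers at parasite vacuoles, had 63.1, 47.4, 45.2 and 46.7 CPM in EYFP and 70.6, 79.1 and 74.2 CPM in ATG7. EYFP 1 stood apart from the other EYFP libraries and lay nearest to the ATG7 group. Gbp9 rose 1.48-fold (log2 fold change 0.56, SE 0.110, edgeR adjusted p = 0.0464), the call closest to the threshold. Without EYFP 1 the log2 fold change was 0.68 (edgeR adjusted p = 0.00180), and without EYFP 3 it was 0.51 (edgeR adjusted p = 0.0964). The call was lost without any library other than EYFP 1. It was also lost with library size alone (edgeR adjusted p = 0.0750), upper quartile factors (edgeR adjusted p = 0.0556) and the filter at a mean of 1 CPM (edgeR adjusted p = 0.0535). The annotated exons of Gbp4, Gbp8 and Gbp9 overlap by 60 or 61 bases, which is at most 1.77% of the exonic bases of any of them.

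**Figure D2:**
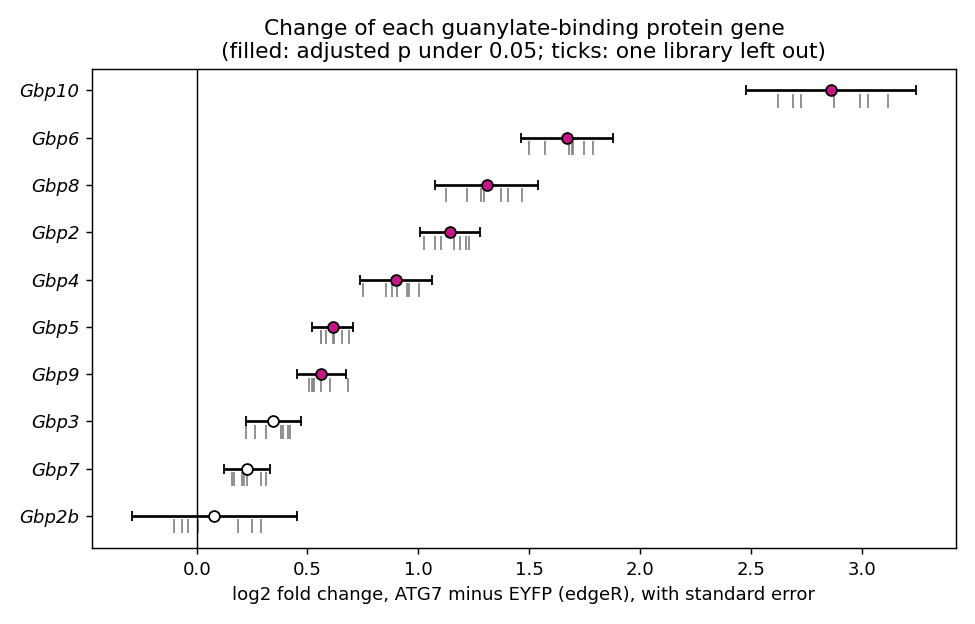
Fitted log2 fold change of ATG7 minus EYFP (horizontal axis) with its standard error for the 10 genes of the family that were tested, filled where the adjusted p was under 0.05, and ticks for the values with 1 library left out. Gbp10 is farthest from 0 at 2.86 and Gbp2b is nearest at 0.08, the only gene whose ticks fall on both sides of 0.

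The other genes of the family are Gbp10, Gbp2b and Gbp11, of which Gbp10 and Gbp2b were tested and Gbp10 passed. Gbp10 (chromosome 5, 105215699 to 105239533) had 9, 6, 4 and 11 counts in EYFP 1 to 4 and 43, 89 and 60 counts in ATG7 1 to 3. In CPM these were 0.246, 0.131, 0.0887 and 0.270 against 1.07, 1.62 and 1.29. Gbp10 rose, with a log2 fold change of 2.86 and an SE of 0.383 (edgeR adjusted p = 0.0101). Only 2 of the EYFP libraries reached the minimum of the filter, so the gene entered the test through the ATG7 libraries. The call was lost without ATG7 2. Gbp2b, the gene most like Gbp2 at 82.5% coding identity, had 0.628, 0.327, 0.355 and 0.564 CPM in EYFP and 0.325, 0.601 and 0.538 CPM in ATG7. The groups overlapped widely, and the fitted difference was 0.08 on the log2 scale, SE 0.374 (edgeR adjusted p = 0.962). Its direction turned under several alternatives, among them without EYFP 3 (-0.04). Gbp11, annotated as a polymorphic pseudogene, had between 1 and 10 counts per library and was not tested.

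Levels were compared between genes per kilobase of annotated exon, taken over all annotated transcripts of a gene. The order between genes thus depends on the annotation, which gives 2516 bases to Gbp2 and 6637 to Gbp5. Without division by length, mean CPM was higher for Gbp5 than for Gbp2 in EYFP (27.8 against 18.4) and in ATG7 (42.5 against 40.6). In the EYFP libraries Gbp9, Gbp7, Gbp3 and Gbp2 formed an upper group, at 9.78 ± 1.62, 8.94 ± 1.19, 8.59 ± 1.28 and 7.31 ± 1.44 CPM per kilobase (SD, n = 4). Neighbours in this order overlapped between libraries. The highest Gbp2 value in EYFP, 8.60 CPM per kilobase, lay below the lowest of Gbp9, 8.74. Gbp5 followed at 4.19 ± 0.458, Gbp4 at 1.63 ± 0.369, Gbp8 at 0.787 ± 0.239 and Gbp6 at 0.406 ± 0.103 CPM per kilobase (SD, n = 4). These 4 kept the same order in each of the 7 libraries. In ATG7 the upper end of the order was Gbp2 at 16.1 ± 1.24 and Gbp9 at 14.4 ± 0.822 CPM per kilobase (SD, n = 3), which overlapped. Gbp3 at 10.9 ± 1.49 and Gbp7 at 10.5 ± 0.958 CPM per kilobase (SD, n = 3) came next and also overlapped. Within each library Gbp2 ranked 4 of 8 in all EYFP libraries, and 1 or 2 of 8 in the ATG7 libraries.

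**Figure D3:**
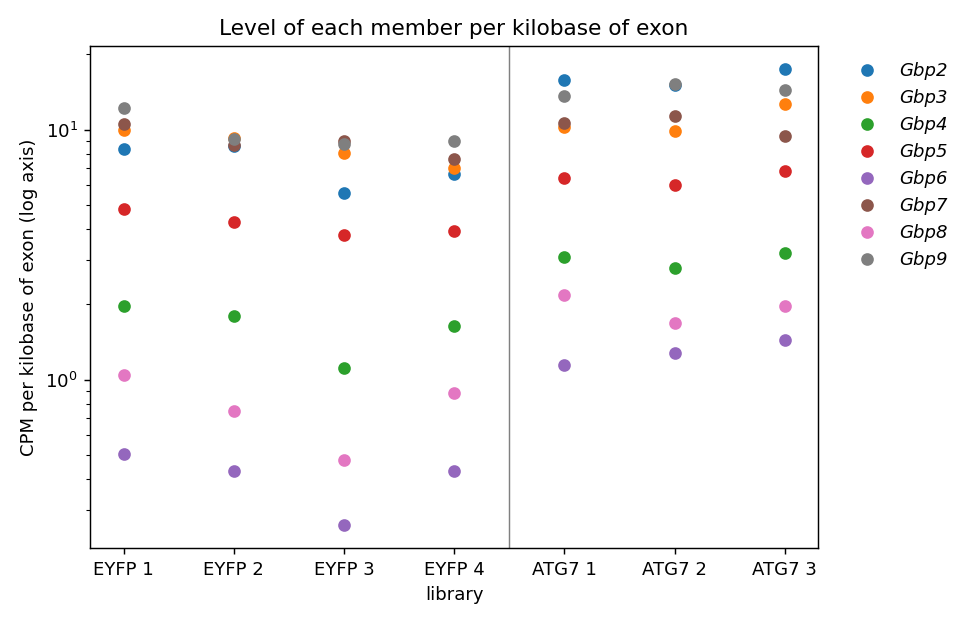
TMM-scaled CPM per kilobase of annotated exon (log axis) of the 8 members in each library, 1 colour per gene. Gbp2 lies below Gbp9, Gbp7 and Gbp3 in the EYFP libraries and beside Gbp9 at the top in the ATG7 libraries.

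The makeup of the summed GBP signal differed accordingly. The 8 members summed to 228.7, 194.7, 172.9 and 173.1 CPM in EYFP 1 to 4 and to 283.5, 287.2 and 297.0 CPM in ATG7 1 to 3. Gbp2 held 9.54% ± 1.23 (SD, n = 4) of that sum in EYFP and 14.0% ± 0.796 (SD, n = 3) in ATG7. Gbp7 held 26.2% ± 2.14 (SD, n = 4) and 20.3% ± 2.25 (SD, n = 3). The share of Gbp5 was 14.5% ± 0.439 (SD, n = 4) and 14.7% ± 0.688 (SD, n = 3), and that of Gbp9 was 26.3% ± 1.40 (SD, n = 4) and 25.8% ± 1.50 (SD, n = 3). Gbp6 held 1.25% ± 0.246 (SD, n = 4) and 2.65% ± 0.245 (SD, n = 3). The shares of Gbp2, Gbp4, Gbp6 and Gbp8 were higher in ATG7 without overlap, that of Gbp7 was lower without overlap, and those of Gbp3, Gbp5 and Gbp9 overlapped.

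Among the EYFP libraries, EYFP 1 was the highest EYFP library for 7 of the 8 members and EYFP 3 the lowest for 6 of the 8. Gbp2 was highest in EYFP 2, and Gbp3 and Gbp7 were lowest in EYFP 4. On the log2 scale, centred on each gene's mean, the members averaged -0.08 in EYFP 1, -0.30 in EYFP 2, -0.68 in EYFP 3 and -0.42 in EYFP 4, against 0.48, 0.44 and 0.56 in ATG7 1 to 3. Similarity to this profile was measured over the 7 libraries as the root mean square difference in log2 CPM among 11774 genes with a mean of at least 5 CPM. Among the 5 nearest genes were Clec7a at 0.0569, a receptor for fungal glucans, Irgm1 at 0.0824, an IRG, Slamf8 at 0.0934, a receptor of the SLAM family, and Cmpk2 at 0.0937, an interferon-induced nucleotide kinase. Of the members, Gbp4 was nearest to the mean profile at 0.105. The 4 genes were picked as nearest among 11774, and the 8 members were not picked by nearness. Their smaller differences therefore do not show that they follow the profile better than the members do.

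**Figure D4:**
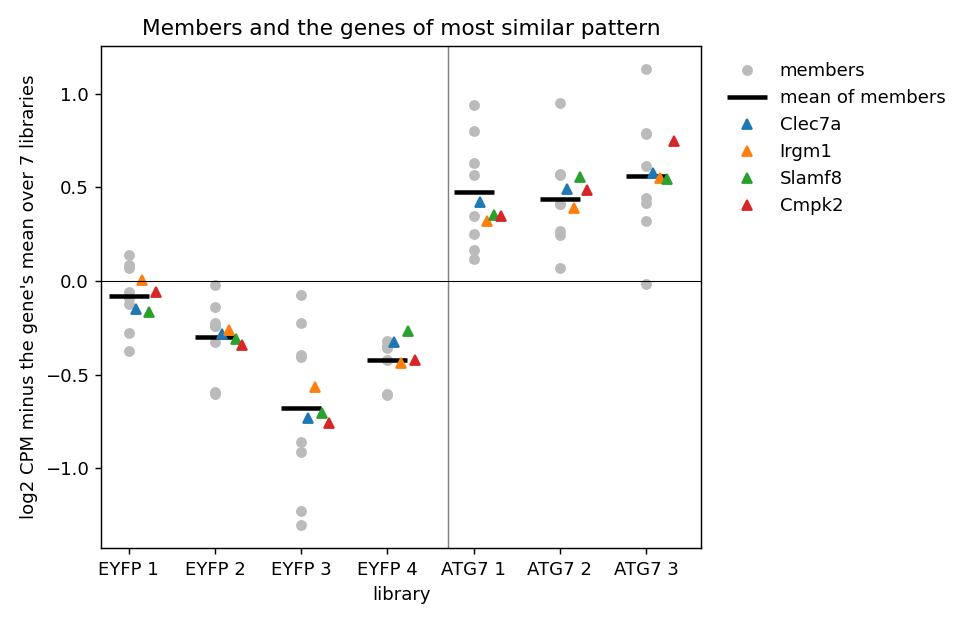
Log2 CPM minus the gene's own mean over the 7 libraries (vertical axis) for the 8 members (grey points), their mean (black bars) and 4 of the 5 genes of most similar pattern (triangles, shifted sideways). EYFP 3 is lowest at a mean of -0.68 and EYFP 1 is nearest to the ATG7 libraries at -0.08.

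Interferon signalling and its regulation were examined through a list of 16 interferon genes, receptors, kinases and regulators, not all of which induce GBPs. Of the 15 tested, 3 were called higher and 0 lower, and the median log2 fold change was 0.22. DESeq2 and limma-voom each called 4, adding Irf9. Over all genes tested 0.688% were called higher by edgeR, 2.11% by DESeq2 and 0.953% by limma-voom. Nlrc5, the activator of MHC class I genes, rose by 1.50 (edgeR adjusted p = 0.0282), Stat2 by 0.93 (edgeR adjusted p = 0.0137) and Irf1 by 0.53 (edgeR adjusted p = 0.0483). These 3 calls were lost without EYFP 2, EYFP 4, ATG7 2 or ATG7 3, those of Nlrc5 and Irf1 also without ATG7 1, and that of Irf1 also without EYFP 3. Irf1 was also lost under RLE factors (edgeR adjusted p = 0.0504), library size alone (0.0703), upper quartile factors (0.0534) and the filter at a mean of 1 CPM (0.0535), and Nlrc5 with no filter (edgeR adjusted p = 0.130). The receptor gene Ifngr1 overlapped between the groups, with a log2 fold change of 0.11 (edgeR adjusted p = 0.771), which was -0.03 with the choroid plexus covariate. Ifng itself, the gene of interferon gamma, had 1, 0, 0 and 1 counts in EYFP 1 to 4 and 3, 6 and 5 counts in ATG7 1 to 3 and was not tested. Ifnb1, the gene of interferon beta, had the largest log2 fold change of the list, 1.90 (edgeR adjusted p = 0.251). Its means were 0.237 CPM in EYFP (SD 0.173, n = 4) and 0.874 CPM in ATG7 (SD 0.495, n = 3), and the groups overlapped. Both genes lie outside the rule for named genes, and Ifnb1 was named after its values were seen.

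Of 8 genes of the partner family, the IRGs, 5 were called higher and 0 lower, DESeq2 adding Ifi47, with a median log2 fold change of 0.83. The shares called higher over all genes were 0.688% with edgeR and 2.11% with DESeq2. Iigp1 had a mean of 12.5 CPM in EYFP (SD 3.89, n = 4) and of 33.2 CPM in ATG7 (SD 2.77, n = 3). It rose by 1.41 in log2 terms (edgeR adjusted p = 0.0272). Irgm1 rose by 0.72 (edgeR adjusted p = 0.0239), Igtp by 0.62 (edgeR adjusted p = 0.0206) and Gm12250 by 1.16 (edgeR adjusted p = 0.00512). Tgtp2 rose by 1.57 (edgeR adjusted p = 0.0118), but it has a near-identical copy, Tgtp1, at a log2 fold change of -0.05 (edgeR adjusted p = 0.928). Tgtp1 was named after its values were seen. Added together, both copies reached a mean of 19.6 CPM in EYFP (SD 2.38, n = 4) and of 34.6 CPM in ATG7 (SD 5.22, n = 3). Only the call of Gm12250 was kept without each library in turn. Those of Iigp1, Irgm1, Igtp and Tgtp2 were each lost without EYFP 4. Iigp1, Irgm1 and Igtp were also lost without ATG7 2 or ATG7 3, Iigp1, Irgm1 and Tgtp2 without EYFP 2, and Iigp1 without ATG7 1. Iigp1 was also lost with no filter (edgeR adjusted p = 0.140).

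Of the 10 ATG8 conjugation genes, to which Atg7 belongs, 0 were called by edgeR, DESeq2 or limma-voom, and 0 had an unadjusted edgeR p under 0.05. All 10 were tested, 5 were above 0 and 5 below, and the median log2 fold change was -0.00. Atg7 lay between 33.6 and 37.6 CPM in EYFP and between 32.0 and 37.4 CPM in ATG7, a log2 fold change of -0.03 (edgeR adjusted p = 0.939) that was 0.04 without ATG7 1. The overexpression was directed at neurons, so these libraries do not check it. The smallest p in the list belonged to Gabarapl1 (log2 fold change -0.18, edgeR adjusted p = 0.544) and Atg3 (0.06, edgeR adjusted p = 0.808).

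Of the 6 prenylation genes, whose enzymes attach and process lipid anchors of proteins, 0 were called by the same 3 tools and 2 had an unadjusted edgeR p under 0.05. Rce1 had a log2 fold change of 0.23 (edgeR adjusted p = 0.273) and Fntb of -0.25 (edgeR adjusted p = 0.380). Genes of cytosolic lipopolysaccharide and DNA sensing had 0 calls among 9 with edgeR and limma-voom and 2 with DESeq2 (Casp4 and Il1b), 3 having an unadjusted edgeR p under 0.05. Their median log2 fold change was 0.13. Casp4 came closest, with means of 14.0 CPM in EYFP (SD 1.59, n = 4) and 20.0 CPM in ATG7 (SD 2.65, n = 3). Its log2 fold change was 0.51 (edgeR adjusted p = 0.0853). Its groups did not overlap, and its difference passed without EYFP 1 (edgeR adjusted p = 0.0309). Il1b had a log2 fold change of 0.62 (edgeR adjusted p = 0.159). Of 11 other GTPases of the dynamin superfamily, Mx2, an antiviral effector, was called, at 0.99 (edgeR adjusted p = 0.0208), and this call was lost without EYFP 2, EYFP 4, ATG7 2 or ATG7 3. DESeq2 also called Mx1. For these lists too, the shares called higher over all genes were 0.688% with edgeR and 2.11% with DESeq2. Irf9, Ifi47 and Mx1 were named after their values were seen.

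Levels of other cells' markers were set beside the GBP genes. T and NK cells, which make interferon gamma, were represented by 8 markers that summed to between 2.75 and 6.69 CPM in EYFP and between 7.59 and 19.0 CPM in ATG7, without overlap (two-sided exact permutation p = 0.0286, which is the lowest that 4 against 3 libraries can give). All 8 differences were above 0 in the fit, with a median log2 fold change of 1.44. With edgeR 0 of the 8 were called, 5 having an unadjusted p under 0.05, and limma-voom also called 0. DESeq2 called 4 (Cd3d, Cd8a, Nkg7 and Trac), where 2.11% of all genes were called higher. None of the 8 was at 3 counts or fewer in most libraries. Choroid plexus markers summed to between 54920 and 72454 CPM in EYFP and between 46514 and 61334 CPM in ATG7 (exact permutation p = 0.257). All 8 differences were below 0 and 0 were called by edgeR, DESeq2 or limma-voom, 2 having an unadjusted edgeR p under 0.05. Endothelial markers, from cells that also express GBPs, ran from 553.4 to 855.9 CPM in EYFP and from 613.1 to 1166 CPM in ATG7 (exact permutation p = 0.371). The microglial sums overlapped as well (exact permutation p = 0.771), as did those of blood monocytes and neutrophils (0.914) and astrocytes (0.714). DESeq2 called Plac8 among the blood markers (edgeR log2 fold change 1.45, edgeR adjusted p = 0.128), where 3 differences were above 0 and 3 below. It also called the astrocyte marker Slc7a10 (edgeR log2 fold change -0.57, edgeR adjusted p = 0.217). Plac8 and Slc7a10 were named after their values were seen. The p-values of the 10 marker lists came from the same family of tests, and after Benjamini-Hochberg adjustment that of T and NK cells was 0.286. The part of T and NK cells in the GBP result was not tested. With the choroid plexus score as covariate the log2 fold change was 1.21 for Gbp2 (edgeR adjusted p = 0.0730), 1.67 for Gbp6 (edgeR adjusted p = 0.0451) and 0.44 for Gbp9 (edgeR adjusted p = 0.195). With that covariate the calls of Gbp10, of Stat2, Irf1 and Nlrc5, of Mx2 and of the IRG genes other than Gm12250 were lost too.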

How the data were processed

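RNA-seq counts per gene from 7 libraries of CD11b-enriched microglia were used as the authors deposited them, in 1 table of whole-number counts. The submitters' processing notes name fastp 0.20.1, HISAT2 2.0.5, featureCounts and the builds mm10 and GRCm38, with no roles. Strand setting and the handling of reads that match several genes are not given in the sources used here. Gene identifiers were matched to GENCODE M21, and 55141 of 55401 were found. Groups came from the sample labels. Genes were kept by filterByExpr, scaled by TMM and tested with edgeR 4.0.16 in R 4.3.3 (glmQLFit with robust settings, glmQLFTest, all 7 libraries, no covariate), with Benjamini-Hochberg adjustment over 19199 genes and a threshold of 0.05. Alternatives used other scalings and filters, DESeq2 1.42.0, limma 3.58.1, a replicate block, a choroid plexus covariate and left-out libraries. Single values were compared by a two-sided exact permutation test over all assignments of the libraries, which cannot go below 0.0286. A count of 3, taken as the floor, equals 0.0543 to 0.0835 CPM and covers counting error only. No pair of libraries agreed within sampling noise (chi-square per degree of freedom of at least 19.2). The named genes were all members and the other family genes, from each other list those that passed or else the 2 with the smallest p, always Irf1, Ifngr1 and Atg7, and the 5 genes of most similar pattern. The members and lists were chosen with earlier results of these data known. One gene of these lists is not reported here and was left out of their counts. The fit was tested on simulated data.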

Additional observations from a re-analysis of the deposited data

Results flagged for a closer look

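In EYFP 1 the level of Gbp9, 63.1 CPM, stood apart from the other EYFP libraries, the gap to the nearest of them being 0.875 of the range of the group. Gbp11 had 0.218 CPM in EYFP 2, from 10 counts, with a gap of 0.863 of the range. Neuronal markers summed to 44.3 CPM in EYFP 1, with a gap of 0.856 of the range. These gaps exceed Dixon's critical value for 4 libraries. Among 42 sets of values examined chance would give about 2.1 such results.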

How the results depend on the processing

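Of the 8 members 6 were called, and all 8 differences were above 0 under each of 17 alternatives. The labels do not say that the replicate numbers pair the samples. Deviations of same-numbered libraries correlated at -0.0609, -0.182 and 0.0664. The fit with the replicate block called 0 members and 0 of all genes, against 145 genes without it. With so few libraries neither result can decide whether samples were paired, because the block leaves few degrees of freedom. Library size alone, upper quartile factors and the filter at a mean of 1 CPM each called 5 members, without Gbp9. These fits called 138, 140 and 153 genes in either direction. With the choroid plexus covariate 1 member and 22 genes were called. Leaving out 1 library gave 2 to 6 members and 28 to 277 genes. Members without overlap between the groups numbered 6 under each scaling and 6 to 8 when 1 library was left out. With fewer libraries the groups separate more easily in any gene. The share of all genes without overlap, 6.33%, was taken for the main setting only, so the rise to 8 cannot be set beside it. All genes called numbered 297 with no filter, 582 with DESeq2 and 710 without EYFP 1 and EYFP 3 together. The log2 fold change of Gbp2b was -0.26 with the covariate and ran from -0.10 (without ATG7 2) to 0.29 (without ATG7 1) when 1 library was left out, being -0.07 without EYFP 2 and -0.04 without EYFP 3. The log2 fold change of Ifngr1 was -0.032 with the covariate, and that of Atg7 ran from -0.083 (without ATG7 3) to 0.035 (without ATG7 1). The cause was not tested in any of these. The median log2 fold change over all genes lay between -0.02 and 0.01 over the settings. Depth limits Gbp2b, Gbp10 and Gbp11, which had few counts.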
